A study of Mus musculus with 48 samples.

Results

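The cells described here are the Nr5a1/Fezf1 neurons of the embryonic mouse hypothalamus. They were chosen as cells with at least 1 UMI (a tagged transcript molecule, counted once) of Nr5a1 or Fezf1, with at least 3 of the neuronal genes Stmn2, Tubb3, Snap25, Syt1, Elavl4 and Rbfox3 detected, and with 0 UMIs of the pituitary hormone genes Cga and Tshb. The rule found 900 of 14121 cells, 448 in control and 452 in Eed-cKO. Of the 1004 cells with a UMI of Nr5a1 or Fezf1, 94 lacked 3 neuronal genes and 10 held Cga or Tshb. Just inside the neuronal threshold lay 71 cells with exactly 3 of the 6 neuronal genes, and just outside it lay 37 cells with exactly 2. Because the cells were chosen by measured UMIs of Nr5a1 and Fezf1, the levels of these genes are given below as a description, with no test.

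Nr5a1 encodes a nuclear receptor and Fezf1 a zinc finger transcription factor, and both are known for the formation of the ventromedial hypothalamic nucleus. Neurons of this nucleus are mostly glutamatergic, and they take part in energy balance, defence and social behaviour. Eed is a core subunit of Polycomb repressive complex 2 (PRC2), which places a repressive methyl mark on histone H3 and keeps developmental regulators silent in tissues where they do not belong.

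The study compared embryonic hypothalami (E18.5) in 48 single-cell libraries, of which 22 came from 6 control and 26 from 9 Eed-cKO embryos. Both groups held both sexes, with more males than females in control and more females than males in Eed-cKO. Controls carried Eed fl/fl without Cre, and Eed-cKO embryos carried Eed fl/fl with Sox1-Cre/+, in which Cre sits in the Sox1 locus and acts in the early neural lineage. The Cre and Sox1 alleles and the deletion of Eed therefore cannot be told apart, and the conditional allele was the same in both groups. The embryos fell under 4 name prefixes in control and 6 in Eed-cKO with 0 shared, so that genotype and whatever a prefix marks cannot be told apart either.

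The embryo was the replicate, and each contributed 50 to 132 Nr5a1/Fezf1 neurons in control and 15 to 92 in Eed-cKO. Summed over these cells, an embryo held 370043 to 765395 UMIs in control and 50636 to 741482 in Eed-cKO. The median cell held 6527.5 UMIs (control) or 6524 UMIs (Eed-cKO), where other neurons held 5149 or 4694. Other neurons are the cells that met the rule except for Nr5a1 and Fezf1. One library of control embryo 5 held 1207 cells against 465 in the next largest, and it gave 96 of the Nr5a1/Fezf1 neurons. Of 14019 distinct cell barcodes, 101 occurred in more than 1 library, and 16 of the Nr5a1/Fezf1 neurons carried such a barcode. Levels are given in CPM, which scales a gene's counts to a common total of UMIs per embryo. They are not corrected for gene length, and they are compared only between groups of cells for the same gene.

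Eed itself stood in the summed cells at 24.5 to 48.0 CPM in control (median 30.9) and at 0 to 33.7 CPM in Eed-cKO (median 18.1). The groups overlapped, and the difference did not pass the test (log2 fold change -0.83 ± 0.28 SE, adjusted p = 0.0797). The deleted exons lie upstream of the 3′ end that these libraries tag, so the Eed count does not check the deletion, and reads of the antisense gene E230029C05Rik could not be told apart from it. Sox1, whose locus carries Cre in the mutants, stood at 68.0 to 136 CPM in control and 19.3 to 68.5 CPM in Eed-cKO, and it fell (log2 fold change -1.12 ± 0.19, adjusted p = 3.05e-05). Relative to other neurons of the same embryos, the difference between genotypes was -1.17. In Nr5a1-positive cells alone Sox1 was not called (-0.82, adjusted p = 0.328). The part of the Cre allele in this fall was not tested.

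The share of neurons that were Nr5a1/Fezf1 neurons was not found to differ between genotypes. It was 7.47 ± 2.00% in control (SD, n = 6, range 5.51 to 10.2%) and 8.86 ± 3.23% in Eed-cKO (n = 9, range 4.42 to 13.2%). The embryos overlapped widely, and the difference of 1.39 percentage points did not pass the exact two-sided permutation test (p = 0.362, 0.482 after Benjamini-Hochberg adjustment over 4 shares). Nr5a1-positive neurons were 1.94 ± 0.557% and 1.56 ± 0.729% of neurons (exact permutation p = 0.298), and Fezf1-positive neurons were 6.55 ± 1.68% and 8.16 ± 3.18% (exact permutation p = 0.273). Neurons positive for both genes were 1.02 ± 0.449% and 0.863 ± 0.825% (exact permutation p = 0.675). With every neuron thinned to 2000 UMIs, the Nr5a1/Fezf1 neurons were 5.12 ± 1.11% and 5.14 ± 1.95% of neurons. A lower count of cells and less RNA per cell cannot be told apart in these shares, since a cell is counted only when a UMI of either gene was caught.

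**Figure D1:**
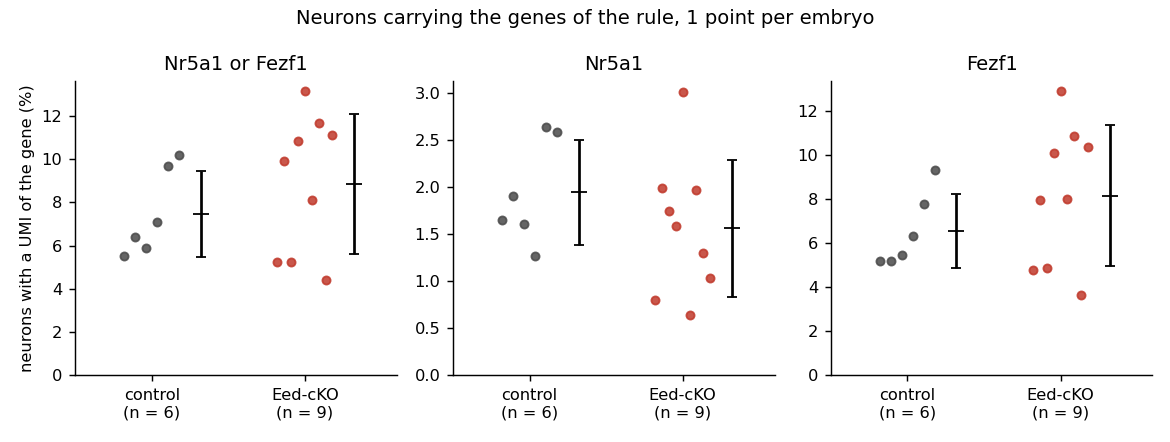
Percentage of neurons with a UMI of Nr5a1 or Fezf1, of Nr5a1 and of Fezf1 (vertical axes, percent of neurons), 1 point per embryo, with the mean and SD beside the points for control (n = 6) and Eed-cKO (n = 9). The embryos of both genotypes overlap in each panel, with means of 7.47% and 8.86% for either gene.

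Among the chosen cells, Fezf1 was found in 86.8% in control and 93.8% in Eed-cKO, and Nr5a1 in 26.3% and 17.3%. Fezf1-positive cells held fewer UMIs of Fezf1 each in Eed-cKO. The 389 Fezf1-positive control cells held 3.69 UMIs of Fezf1 each on average and the 424 Eed-cKO cells held 2.41. The 118 and 78 Nr5a1-positive cells held 1.59 and 1.58 UMIs of Nr5a1. Summed per embryo over the chosen cells, Fezf1 stood at 396 to 531 CPM in control and 216 to 377 CPM in Eed-cKO, and Nr5a1 at 46.8 to 89.8 CPM and 16.9 to 107 CPM. The rule shapes these levels, since it asked for a UMI of either gene. Over all neurons, Fezf1 stood at 29.4 to 58.4 CPM in control and 17.3 to 55.3 CPM in Eed-cKO. Nr5a1 stood there at 4.09 to 8.03 CPM and 1.63 to 7.68 CPM, and the embryos overlapped for both genes. Cells that entered on a single UMI of either gene numbered 162 of 448 in control and 237 of 452 in Eed-cKO. Averaged over embryos, such cells were 35.2 ± 8.93% of the chosen cells in control and 54.2 ± 13.3% in Eed-cKO.

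Free RNA in the droplets can give a cell a UMI of a gene that it does not express. Among cells with at least 3 vascular, leptomeningeal or microglial genes and fewer than 3 neuronal genes, Fezf1 was found in 2 of 274 control cells (0.730%, exact 95% interval 0.0885 to 2.61%) and 6 of 462 Eed-cKO cells (1.299%, 0.478 to 2.81%). Nr5a1 was found in 0 of 274, which allows a share of up to 1.09%, and in 0 of 462, which allows up to 0.649%. These cells held a median of 3695.5 and 3715 UMIs, fewer than neurons, and intervals and limits cover counting error only. The share of neurons with Fezf1 was several times that of these cells in both genotypes, whereas single cells that entered on 1 UMI cannot be told apart from this background.

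Nr5a1 and Fezf1 marked overlapping but unequal sets of neurons. Nr5a1 was found in 15.2% of 389 Fezf1-positive control neurons and in 1.07% of 5490 Fezf1-negative ones, and in 11.8% of 424 and 0.593% of 4723 in Eed-cKO. Of the 900 cells, 109 held both genes, 87 held Nr5a1 alone and 704 held Fezf1 alone. The Nr5a1-positive cells were 17.9 to 30% of the chosen cells in control embryos and 7.94 to 33.3% in Eed-cKO embryos.

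The label of ventromedial neurons held more firmly for the Nr5a1-positive cells than for those with Fezf1 alone. Of 22 genes listed as known in the ventromedial nucleus, 21 were tested between both classes within 13 embryos, and 13 were higher in the Nr5a1-positive cells and 0 lower, where 0.774% and 2.53% of 12279 genes (3.31% in all) were called in these directions. The median log2 fold change of the list was 0.72, against -0.12 over all genes tested. Sox14, a transcription factor of ventral diencephalic neurons, stood at 43.8 to 271 CPM (median 150) in Nr5a1-positive and at 0 to 126 CPM (median 29.4) in Fezf1-only cells, and it was higher in the first (log2 fold change 1.88 ± 0.20, adjusted p = 3.46e-18). Gda, which encodes guanine deaminase, was higher by 1.69 ± 0.17 (adjusted p = 3.66e-21), Nptx2, a secreted pentraxin of excitatory synapses, by 1.67 ± 0.16 (1.57e-22), and Nkx2-2, a homeodomain factor of ventral neural territories, by 1.81 ± 0.25 (9.33e-11). Adcyap1, which encodes the neuropeptide PACAP and is a ventromedial marker, stood at a median of 87.2 CPM in Nr5a1-positive and 39.2 CPM in Fezf1-only cells (log2 fold change 1.26 ± 0.21, adjusted p = 3.3e-07). Outside the list, Prdm12 and Prdm13, a pair of PR domain regulators, were higher by 2.9997 ± 0.39 and 2.82 ± 0.42, and Nr0b1, a nuclear receptor that partners Nr5a1, by 1.97 ± 0.44 (adjusted p = 0.000731).

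The Fezf1-only cells held genes of other hypothalamic territories and peptides. Of 26 territory genes tested, 7 were higher in them and 2, Isl1 and Six3, were lower. Of all 12279 genes tested, 2.53% and 0.774% were called in these directions. Sim1, a regulator of paraventricular neurons, stood at 24.8 to 131 CPM (median 66.3) in Fezf1-only and at 0 to 45.0 CPM (median 13.1) in Nr5a1-positive cells (log2 fold change -2.43 ± 0.31, adjusted p = 8.7e-13). Foxb1, a marker of the mammillary region that overlaps the antisense gene B230323A14Rik, differed by -2.59 ± 0.44 (adjusted p = 7.25e-07), and Onecut2 by -2.42 ± 0.23 (adjusted p = 3.46e-13). Gsc, which encodes a homeodomain factor of the early embryonic organizer, was at 0 in the Nr5a1-positive cells of all 13 embryos, and stood at 0 to 55.5 CPM (median 15.3) in Fezf1-only cells.

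Of 24 neuropeptide genes tested between the classes, 10 were higher in Fezf1-only cells, and Adcyap1, Pdyn, Cbln1 and Bdnf were higher in Nr5a1-positive cells. Of all 12279 genes tested, 2.53% were called higher in Fezf1-only cells and 0.774% higher in Nr5a1-positive cells. Trh, the thyrotropin-releasing hormone, had median levels of 43.1 CPM in Fezf1-only cells and 0 CPM in Nr5a1-positive cells (log2 fold change -3.77 ± 0.45, adjusted p = 4.93e-14). Sst, which encodes somatostatin, differed by -2.88 ± 0.42 (adjusted p = 0.00135) and Gal, which encodes galanin, by -2.42 ± 0.28 (adjusted p = 2.34e-15). Slc32a1, the vesicular GABA transporter, was lower in Nr5a1-positive cells by -1.04 ± 0.29 (adjusted p = 0.0136). The astrocyte genes Slc1a3 and Fabp7 were also lower in Nr5a1-positive cells, by -2.70 ± 0.35 and -1.45 ± 0.28, and of 3 microglial genes C1qb and C1qc were called lower. Of the astrocyte markers, 4 of 6 were called lower and 0 higher in Nr5a1-positive cells, and their part in the class differences was not tested. The chosen cells are therefore named by their rule, as Nr5a1/Fezf1 neurons, and not as 1 nucleus.

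**Figure D2:**
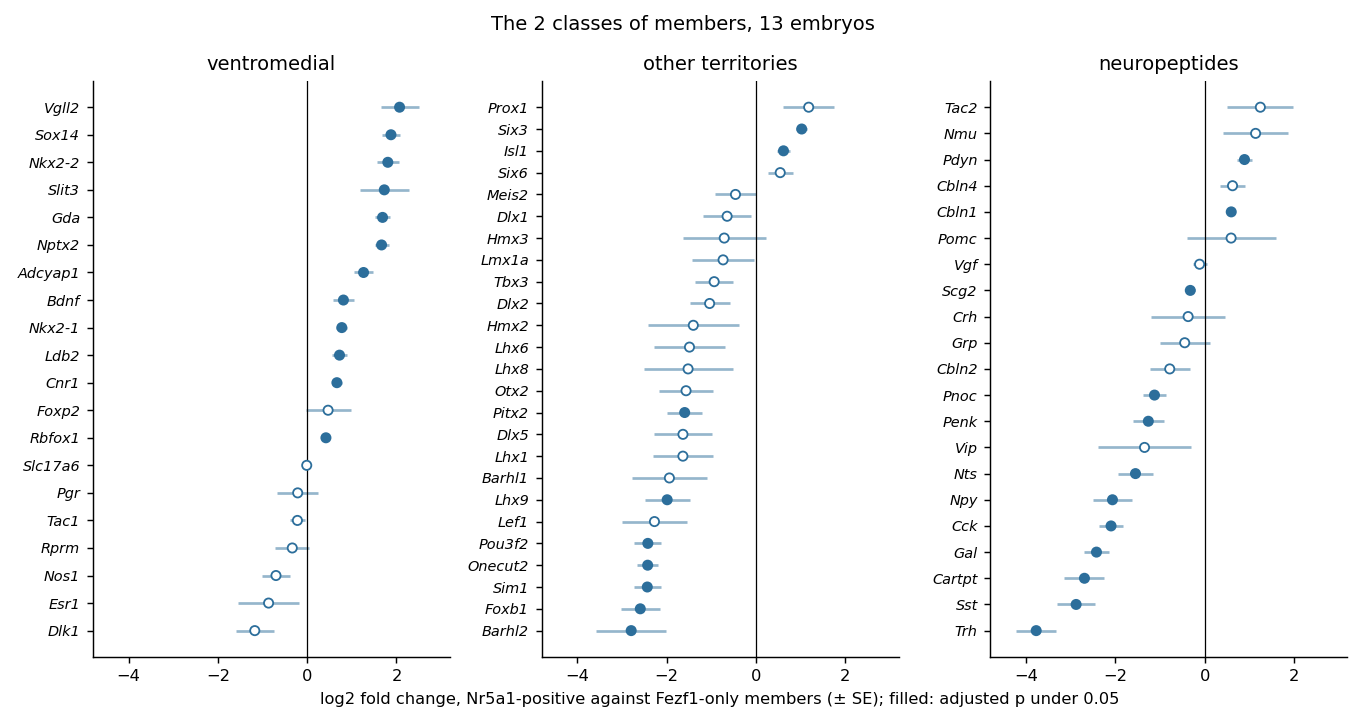
Log2 fold change of Nr5a1-positive against Fezf1-only cells within 13 embryos (horizontal axis, with SE bars) for ventromedial genes, genes of other hypothalamic territories and neuropeptide genes, filled where the adjusted p is under 0.05. The ventromedial panel has 12 filled points, each right of 0, and the territory panel has 7 filled points left of 0 and 2 right of it.

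In control embryos, the Nr5a1/Fezf1 neurons stood out from other neurons by ventromedial genes. Both sums came from the same embryo, so the embryo was a block, and 190 genes were higher and 357 lower in the Nr5a1/Fezf1 neurons (1.31% and 2.46% of 14528 tested, 3.77% in all). Of the 22 ventromedial genes, 14 were higher and 3 lower, with a median log2 fold change of 0.71 against -0.04 over all genes. Sox14 (mm10 chromosome 9, 99874106 to 99876170) stood at 60.4 to 130 CPM (median 90.3) in the Nr5a1/Fezf1 neurons and at 7.24 to 10.98 CPM (median 9.96) in other neurons, with no overlap. It was higher in 6 of 6 embryos (log2 fold change 3.28 ± 0.18, adjusted p = 1.73e-70). Nptx2 stood at 81.8 to 168 CPM against 22.9 to 40.5 CPM, again with no overlap (1.97 ± 0.13, adjusted p = 9.18e-52). Gda, on mm10 chromosome 19 from 21391307 to 21473445, stood at 90.3 to 213 CPM against 41.8 to 66.0 CPM (1.28 ± 0.11, adjusted p = 9.37e-28).

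Other members of the list differed less. Nkx2-2 and Adcyap1 were higher by 1.18 ± 0.21 and 1.00 ± 0.16 (adjusted p = 3.9e-06 and 2.08e-08). Ldb2, a LIM domain binding cofactor, stood at 114 to 180 CPM against 63.5 to 82.0 CPM (0.93 ± 0.10, adjusted p = 1.31e-17). The neurotrophin Bdnf was higher by 0.78 ± 0.14, the vesicular glutamate transporter Slc17a6 by 0.74 ± 0.05, the cannabinoid receptor Cnr1 by 0.57 ± 0.07, the splicing factor Rbfox1 by 0.57 ± 0.06, and the hypothalamic homeodomain gene Nkx2-1 by 0.45 ± 0.08. The guidance ligand Slit3 (1.97 ± 0.54) lost its call without control embryo 1, 3 or 6 (adjusted p = 0.0576, 0.0639 and 0.0608), and the nitric oxide synthase Nos1 (0.68 ± 0.19) without embryo 1 or 5 (0.127 and 0.186).

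Rprm and Foxp2 were lower in the Nr5a1/Fezf1 neurons by -0.92 ± 0.08 and -0.85 ± 0.10, in 6 of 6 embryos each. Dlk1 (-0.43 ± 0.11) lost its call without control embryo 2, 3 or 4 (adjusted p = 0.444, 0.303 and 0.296). Vgll2, a transcription cofactor used as a ventromedial marker, spread from 1.96 to 226 CPM (median 133) over control embryos, against 0.55 to 14.01 CPM in other neurons, and did not pass the test (3.99 ± 0.80, adjusted p = 0.0892). Of the hormone receptors of this nucleus, Esr1 stood at 0 to 13.7 CPM and Pgr at 7.25 to 41.2 CPM in the Nr5a1/Fezf1 neurons, neither called (adjusted p = 0.968 and 0.86), and Lepr had 1 UMI in all control cells of the set.

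Genes outside the list also marked these cells. Cbln1, a secreted synapse organizer that overlaps the antisense gene Gm2694, stood at 404 to 638 CPM in control Nr5a1/Fezf1 neurons and 81.1 to 150 CPM in other neurons (2.22 ± 0.06, adjusted p = 4.58e-259). Pdyn, the dynorphin precursor, stood at 82.2 to 164 CPM against 37.4 to 51.6 CPM (1.596 ± 0.11, adjusted p = 4.9e-43). Both ranges were clear of those of other neurons. Gsc (2.79 ± 0.41), Nr0b1 (2.44 ± 0.45), Prdm13 (2.33 ± 0.32) and Gm2694 (2.27 ± 0.11) were, with Sox14, among the 10 genes with the largest fitted rises of those with at least 30 UMIs in the control Nr5a1/Fezf1 neurons.

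Another 4 of those 10 genes, Ccl6, Lyve1, Ifi27l2a and Mrc1, are macrophage or interferon genes, and they came mostly from control embryo 4. In that embryo Ccl6 stood at 123 CPM and Mrc1 at 133 CPM in the Nr5a1/Fezf1 neurons, and Ccl6 was at 0 in the other 5 control embryos. Without that embryo, Mrc1 and Ifi27l2a were not called (adjusted p = 0.924 and 0.116). The summed level of 6 microglial markers ranged from 0 to 340 CPM over the control embryos (median 1.41) and from 0 to 3.96 CPM over Eed-cKO embryos.

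Of the called genes with at least 30 UMIs in the control Nr5a1/Fezf1 neurons, Dlx1, Dlx2, Gad1 and Foxb1 were among the 5 most lowered. Genes with fewer UMIs there had larger fitted differences, among them Tfap2b, En1 and Irx2, which were at 0 in these cells and at 1.11 to 13.2, 1.02 to 11.7 and 1.54 to 10.3 CPM in other control neurons. Dlx1, which overlaps the antisense gene Dlx1as, stood at 13.3 to 64.9 CPM against 170 to 228 CPM in other neurons, with no overlap (-2.42 ± 0.13, adjusted p = 8.6e-29). Dlx2 differed by -2.42 ± 0.21, and Foxb1 by -2.18 ± 0.15. Gad1, which encodes a GABA-synthesizing enzyme and overlaps Gad1os, stood at 24.9 to 159 CPM against 332 to 452 CPM (-2.28 ± 0.37, adjusted p = 0.0443), but the call was lost without control embryo 1, 2, 3, 4 or 6 (adjusted p = 0.121, 0.145, 0.119, 0.124 and 0.163). Of the 14528 genes tested in control, 2.46% were lower and 1.31% higher in the Nr5a1/Fezf1 neurons. Of 27 genes of other hypothalamic territories, 18 were lower and 1, Sim1, was higher (0.53 ± 0.13, adjusted p = 0.00279, and 0.0755 without control embryo 4). Their summed level was 633 to 926 CPM in the Nr5a1/Fezf1 neurons and 1424 to 1864 CPM in other neurons.

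In Eed-cKO embryos, 101 genes were higher and 171 lower in the Nr5a1/Fezf1 neurons than in other neurons (0.69% and 1.17% of 14639 tested, 1.86% in all). Under RLE size factors the split was 155 higher and 134 lower. Whether fewer genes were called than in control depended on the tool, since limma-voom with TREAT called 372 higher and 35 lower in Eed-cKO and 120 higher and 101 lower in control. Of the 22 ventromedial genes, 8 were higher and 3 lower, with a median log2 fold change of 0.35 against -0.04 over all genes. Sox14 stood at 0 to 37.7 CPM (median 24.3) against 0 to 12.7 CPM (median 5.49) in other neurons, higher in 8 of 9 embryos (1.99 ± 0.29, adjusted p = 4.35e-09). Gda, Nptx2 and Cnr1 were higher in 9 of 9 embryos, by 1.32 ± 0.19, 1.24 ± 0.16 and 0.55 ± 0.08. Cbln1 was higher in 9 of 9 embryos too, by 1.71 ± 0.08.

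Several other ventromedial calls in Eed-cKO were lost when 1 embryo was left out. Adcyap1 (0.59 ± 0.17, adjusted p = 0.0255) was not called without Eed-cKO embryo 1, 4, 5 or 7 (0.0750, 0.0804, 0.456 and 0.223), and Nkx2-2 (0.63 ± 0.19) without embryo 1, 4, 5 or 6 (0.0932, 0.118, 0.597 and 0.165). Rbfox1 (0.25 ± 0.07) was not called without embryo 3, 6, 7 or 8 (0.309, 0.108, 0.0797 and 0.149). Nkx2-1, which was higher in the control cells, was lower in the Eed-cKO cells (-0.39 ± 0.09, adjusted p = 0.00163, but 0.0507 and 0.126 without embryo 4 or 7). Rprm and Dlk1 were lower, both by -0.55 ± 0.08, and both calls held whichever embryo was left out.

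The difference between Nr5a1/Fezf1 neurons and other neurons was itself compared between genotypes, and 43 genes were relatively higher and 22 relatively lower in the Eed-cKO cells (0.277% and 0.142% of 15541, 0.418% in all). With limma-voom and TREAT the balance turned, with 28 relatively higher and 56 relatively lower. Of the 22 ventromedial genes, 4 were relatively lower and 0 higher. Slc17a6 (mm10 chromosome 7, 51622006 to 51671119) stood at 481 to 743 CPM in control Nr5a1/Fezf1 neurons and 319 to 414 CPM in other control neurons. In Eed-cKO it stood at 299 to 534 CPM and 288 to 514 CPM, so that the excess of the control cells was not found (0.07 ± 0.06, adjusted p = 0.813), and the difference between genotypes was -0.66 ± 0.08 (adjusted p = 3.75e-10). Ldb2 changed in the same way, from an excess of 0.93 ± 0.10 in control to -0.06 ± 0.13 in Eed-cKO (difference -0.97 ± 0.16, adjusted p = 8.81e-06), and Nkx2-1 from 0.45 to -0.39 (difference -0.83 ± 0.13, adjusted p = 4.67e-06). For Sox14 the difference was -1.29 ± 0.32 (adjusted p = 0.0233), and it was lost without Eed-cKO embryo 4, 5 or 9 or control embryo 3 (0.130, 0.0897, 0.0721 and 0.0737). Pdyn (-0.96 ± 0.18), Cbln1 (-0.49 ± 0.11), Gm2694 (-0.87 ± 0.16) and Sox1 (-1.17 ± 0.21) were relatively lower as well.

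**Figure D3:**
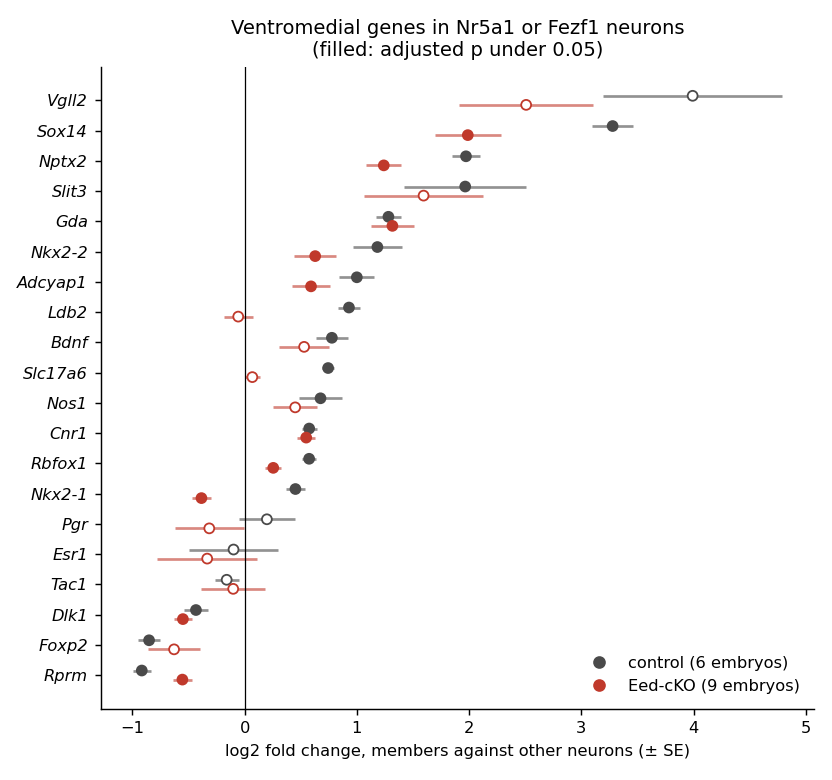
Log2 fold change of Nr5a1/Fezf1 neurons against other neurons of the same embryos (horizontal axis, with SE bars) for 20 genes of the ventromedial list, in control (6 embryos) and Eed-cKO (9 embryos), filled where the adjusted p is under 0.05. Sox14 lies at 3.28 in control and 1.99 in Eed-cKO, and Slc17a6 at 0.74 and 0.07.

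Between genotypes, the Nr5a1/Fezf1 neurons of Eed-cKO embryos held 294 genes at a higher and 148 at a lower level (2.38% and 1.2% of 12378 tested, 3.57% in all). Of 21 ventromedial genes tested, 7 fell and 0 rose, with a median log2 fold change of -0.54 against -0.01 over all genes. Over all neurons of an embryo together, 2 of 22 ventromedial genes, Nkx2-2 and Lepr, rose and 6 fell, where 7.7% and 7.08% of 15541 genes were called (14.8% in all). In 3 of the 7 falls in the Nr5a1/Fezf1 neurons, every Eed-cKO embryo was below every control embryo, as were 0.259% of all genes tested. Sox14 stood at 61.6 to 133 CPM in control (median 91.3) and 0 to 38.4 CPM in Eed-cKO (median 24.6), and it fell (-1.74 ± 0.22, adjusted p = 7.33e-09). Gda stood at 92.0 to 218 CPM (median 110) and 19.8 to 72.5 CPM (median 47.0), and it fell by 1.42 on the log2 scale (SE 0.19, adjusted p = 6.82e-08). Ldb2 stood at 116 to 184 CPM (median 137) and 31.7 to 89.2 CPM (median 52.4), and fell likewise (-1.19 ± 0.16, adjusted p = 1.13e-07).

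The other falls of the list had overlapping embryos. Bdnf stood at 40.8 to 119 CPM in control and 0 to 52.0 CPM in Eed-cKO (-1.31 ± 0.25, adjusted p = 0.000241), and Nptx2 at 81.9 to 172 CPM and 35.7 to 103 CPM (-0.84 ± 0.18, adjusted p = 0.00185). Slc17a6 stood at 488 to 760 CPM (median 613) and 305 to 543 CPM (median 395), a fall of 0.58 ± 0.11 on the log2 scale (adjusted p = 0.000348). Cnr1 fell from a median of 324 to 201 CPM (-0.54 ± 0.13, adjusted p = 0.00622, and 0.0506 without control embryo 6). Adcyap1, at 31.99 to 76.6 CPM and 0 to 59.6 CPM, was not called (-0.41 ± 0.21, adjusted p = 0.363). Nor were Nkx2-1 (-0.22 ± 0.15), Nkx2-2 (0.17 ± 0.38), Vgll2 (-1.69 ± 0.68), Slit3 (-0.63 ± 0.55), Rbfox1 (-0.10 ± 0.21), Nos1 (-0.25 ± 0.28), Foxp2 (-0.31 ± 0.36), Rprm (0.27 ± 0.19), Dlk1 (0.31 ± 0.23), Esr1 (-0.44 ± 0.65), Pgr (-0.72 ± 0.38) or Tac1 (0.28 ± 0.37).

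The 2 classes make up different shares of the chosen cells in the 2 genotypes, so the same genes are given in Nr5a1-positive cells alone. For these, 10 embryos (6 control and 4 Eed-cKO) had at least 10 cells, so a missed call there does not show that a fall is absent. There, Sox14 differed by -0.9955 (adjusted p = 0.0959), Gda by -0.88 (0.0826), Ldb2 by -0.50 (0.710) Bdnf by -0.97 (0.468) and Nptx2 by -0.16 (0.971), none called. Slc17a6 (-0.91, adjusted p = 0.0012) and Cnr1 (-0.85, 0.0078) fell in the Nr5a1-positive cells too. Among cells with at least 2 UMIs of Nr5a1 and Fezf1 together, Sox14 fell by 1.54, Gda by 1.24 and Ldb2 by 1.17 on the log2 scale, and each was called (adjusted p = 6.87e-07, 6.18e-06 and 4.41e-06). Bdnf (-1.24, adjusted p = 0.00433) and Slc17a6 (-0.69, 1.97e-05) were called there too, while Nptx2 (-0.57, 0.249) and Cnr1 (-0.46, 0.0679) were not.

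Other genes that marked these cells in control fell as well. Prdm13 went from 12.3 to 36.7 CPM in control to 0 to 16.8 CPM in Eed-cKO (-2.49 ± 0.44, adjusted p = 4.82e-05), and Prdm12 from 12.3 to 46.8 CPM to 0 to 51.4 CPM (-2.36 ± 0.43, adjusted p = 0.000214). Among the 8 largest falls without overlap were also Myo7a, a motor protein gene (-2.92 ± 0.51), Grm7, a metabotropic glutamate receptor (-1.57 ± 0.22), Dpp10, a potassium channel partner (-1.38 ± 0.18), and Fam103a1 (-1.43 ± 0.24). Dpp10 stood at 116 to 203 CPM in control and 30.03 to 89.2 CPM in Eed-cKO. In Nr5a1-positive cells alone, Prdm12 (-3.01, adjusted p = 0.000126) and Dpp10 (-1.65, 0.00278) were called. Prdm13 (-1.89, adjusted p = 0.0676) and Grm7 (-1.49, 0.0741) were not called there.

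Genes of GABA synthesis rose in the same cells. Gad1 stood at 25.4 to 161 CPM in control (median 67.0) and 217 to 634 CPM in Eed-cKO (median 357), with no overlap (2.11 ± 0.34, adjusted p = 0.00272). Gad2, the other GABA-synthesizing enzyme, rose from 17.7 to 87.3 CPM to 82.4 to 164 CPM (1.64 ± 0.27, adjusted p = 0.000831). Slc32a1 stood at 2.72 to 64.5 CPM and 37.5 to 120 CPM and narrowly missed the threshold (1.71 ± 0.45, adjusted p = 0.0545). Of 9 transmitter genes tested, Gad1 and Gad2 rose and Slc17a6 fell, where 2.38% of all genes tested were called higher and 1.2% lower. In Nr5a1-positive cells alone, Gad2 was called (1.69, adjusted p = 0.0302), and Gad1 (2.165, 0.286) and Slc32a1 (1.24, 0.627) were not. Relative to other neurons of the same embryos, Gad1 was higher by 2.01 ± 0.33 in Eed-cKO (adjusted p = 0.0197, and 0.0578 without control embryo 6). The relative rise of Gad2 (1.86 ± 0.36, adjusted p = 0.0435) was lost when any of 14 of the 15 embryos was left out (0.0589 to 0.112).

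Cell by cell, the shares moved in the same directions. A UMI of Slc17a6 was found in 84.5 ± 6.97% of control Nr5a1/Fezf1 neurons (SD, n = 6, range 74.2 to 92.0%) and in 73.5 ± 8.00% of Eed-cKO ones (n = 9, range 55.8 to 82.4%; exact permutation p = 0.0128, 0.0153 after Benjamini-Hochberg adjustment over 6 shares). In other neurons the share was higher in Eed-cKO, at 45.9 ± 1.17% and 61.0 ± 6.99%. A UMI of Slc32a1 was found in 9.46 ± 8.94% (range 2.00 to 23.5%) and 29.2 ± 7.90% (range 13.04 to 37.3%) of Nr5a1/Fezf1 neurons (exact permutation, adjusted p = 0.00420), and in 30.5% and 32.7% of other neurons. Cells with both transporters went from 6.27 ± 6.08% to 22.2 ± 8.21% (exact permutation, adjusted p = 0.00420), against 4.78% and 20.4% in other neurons. In the vascular, leptomeningeal and microglial cells the same UMIs were found in 7.66% and 8.01% for Slc17a6 and in 2.92% and 1.52% for Slc32a1. At 2000 UMIs per cell, the Nr5a1/Fezf1 neurons gave 62.2% and 48.7% for Slc17a6, 2.93% and 16.05% for Slc32a1, and 1.28% and 7.16% for both.

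The change in cells with both transporters was larger among Fezf1-only cells. In embryos with at least 5 cells of each class, 6 control and 7 Eed-cKO, Fezf1-only cells held both transporters in 6.399% (control) and 24.1% (Eed-cKO), and Nr5a1-positive cells in 6.53% and 13.8%. The difference between the classes differed between genotypes by 10.46 percentage points (exact permutation, adjusted p = 0.00699 over 6 shares), in a comparison chosen after the data were seen. For Slc32a1 it was 14.6 points, which missed the threshold (exact permutation, adjusted p = 0.0524). Over all embryos, Slc32a1 was found in 10.00 ± 12.6% and 12.6 ± 12.3% of Nr5a1-positive cells, a difference that did not pass (exact permutation p = 0.755).

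Regulators of posterior body regions appeared in the Nr5a1/Fezf1 neurons of the mutants. A UMI of any Hox gene was found in 1 of 448 control cells and in 46.1 ± 14.9% of Eed-cKO cells averaged over embryos (range 26.1 to 72.1%, exact permutation, adjusted p = 0.00240), where other Eed-cKO neurons gave 48.1 ± 9.17%. In the vascular, leptomeningeal and microglial cells the shares were 0.365% and 15.8%. Of 34 Hox genes in the table, 33 were at 0 in every control embryo, and 18 passed the filter on low counts and rose. These genes passed the filter through the Eed-cKO embryos alone, so the count describes them and supports nothing. In 4 of them all Eed-cKO embryos exceeded all control embryos, as in 0.283% of all genes tested.

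By fitted fold change, the Hox genes with the largest rises were Hoxc10, Hoxc13, Hoxb13 and Hoxa10. Hoxc10 stood at 22.4 to 154 CPM in Eed-cKO (median 48.0) and at 0 in control, at least 60.2-fold higher, where the bound takes 3 UMIs over the control group, and its reads overlap the gene model of Hoxc5. Hoxc13 stood at 0 to 89.2 CPM (median 30.7), at least 38.15-fold higher, Hoxb13 at 0 to 59.5 CPM (median 34.3), at least 33.7-fold, Hoxa10 at 0 to 37.2 CPM, at least 20.6-fold, and Hoxd10 at 0 to 51.5 CPM, at least 18.51-fold. Hoxa7 and Hoxc8, which did not overlap between genotypes, stood at 7.43 to 34.2 CPM and 7.43 to 28.0 CPM. Within Eed-cKO embryos, 7 of 32 Hox genes were lower in Nr5a1/Fezf1 neurons than in other neurons and 0 higher. Of all 14639 genes tested there, 1.17% were lower and 0.69% higher. Hoxc10 was lower by -0.68 ± 0.13 (adjusted p = 9.17e-05) and Hoxa9 by -1.06 ± 0.21 (adjusted p = 9.49e-05). Of the 7 calls, Hoxa10, Hoxc13 and Hoxd10 were lost without Eed-cKO embryo 5 (adjusted p = 0.0560, 0.0815 and 0.0533), Hoxc8 without embryo 4 or 5 (0.0882 and 0.233), and Hoxa5 without any of 6 embryos (0.0642 to 0.237).

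Tal1 and several other developmental regulators stood higher in the Nr5a1/Fezf1 neurons of Eed-cKO embryos than in those of control. Tal1, a basic helix-loop-helix factor of blood and of GABAergic midbrain and spinal neurons, stood at 0 to 6.00 CPM in control (4 UMIs in all) and 78.7 to 137 CPM in Eed-cKO (335 UMIs), with no overlap (6.00 ± 0.36, adjusted p = 5.07e-24). Within Eed-cKO it stood at 77.1 to 136 CPM in Nr5a1/Fezf1 neurons and 88.0 to 139 CPM in other neurons, a difference that was not called (adjusted p = 0.833). Twist1, a mesenchymal regulator, was at 0 in all control embryos and at 14.99 to 51.5 CPM in Eed-cKO, at least 31.7-fold higher. Vax2, an eye and ventral forebrain homeodomain gene that overlaps Vax2os, was at 0 and at 7.43 to 83.2 CPM, at least 36.1-fold higher, and the heart factor Nkx2-5 was at 0 and at 3.96 to 85.6 CPM, at least 19.1-fold. Of a list of other developmental regulators, 15 were tested, and Tfap2a (3.74, adjusted p = 0.000101), which overlaps the antisense gene Gm26688, and Pax2 rose and Prdm12 fell. Pax8, Vax2, Gata2, En1, En2 and Irx2 were called higher, but like Twist1 and Nkx2-5 they were at 0 in all control embryos and passed the filter through the Eed-cKO embryos alone, so their calls describe them and support nothing. The list was not silent in control, with a summed level of 39.6 to 106 CPM in the Nr5a1/Fezf1 neurons and 96.3 to 130 CPM in other neurons, and 151 to 285 CPM in the Nr5a1/Fezf1 neurons of Eed-cKO. Pax2 (3.41 ± 0.92) was not called without Eed-cKO embryo 6 or 7 or control embryo 6 (adjusted p = 0.0531, 0.0511 and 0.0559). A UMI of Tfap2b was found in 0 of 448 control cells, which allows a share of up to 0.670%, and in 6.96 ± 4.80% of Eed-cKO cells (exact permutation, adjusted p = 0.00420), against 12.3 ± 4.67% in other Eed-cKO neurons and 5.19% in the vascular, leptomeningeal and microglial cells.

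**Figure D4:**
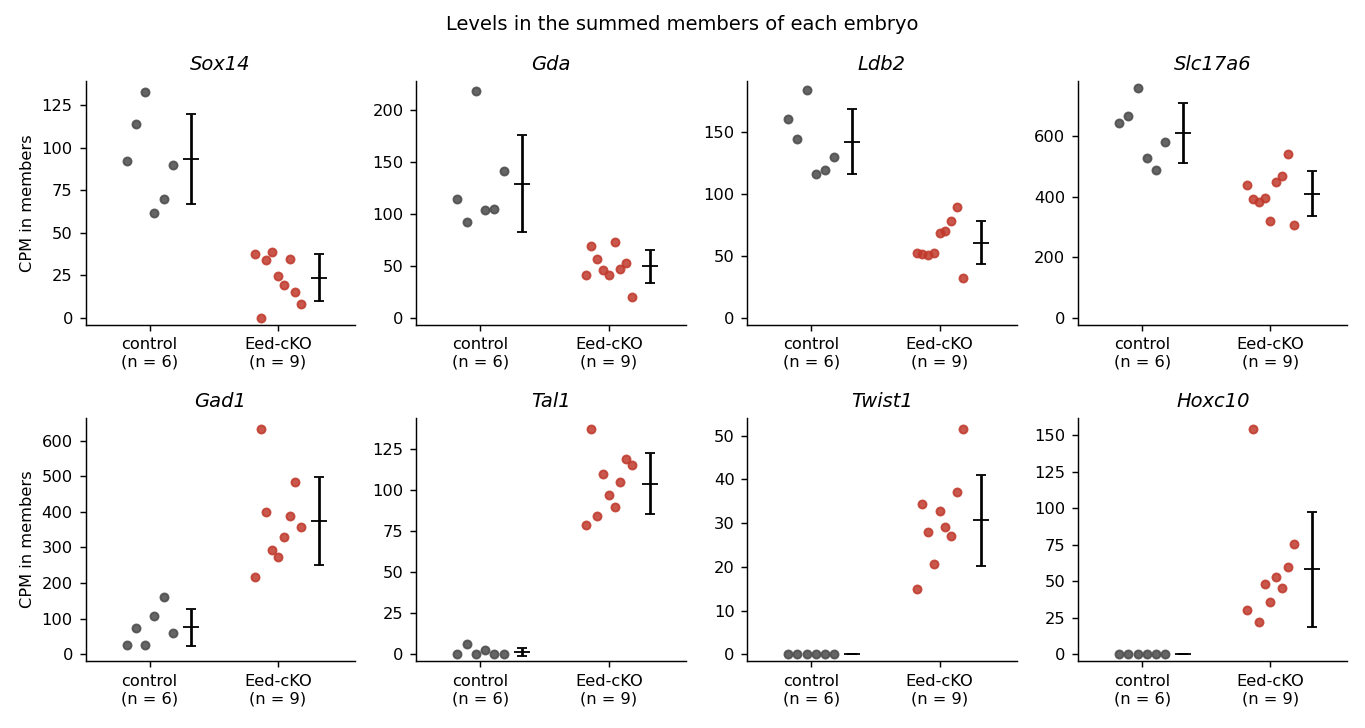
CPM (vertical axes) of 8 genes in the summed Nr5a1/Fezf1 neurons of each embryo, 1 point per embryo, with the mean and SD beside the points for control (n = 6) and Eed-cKO (n = 9). Every Eed-cKO embryo lies below every control embryo for Sox14, Gda and Ldb2 and above for Gad1, Tal1, Twist1 and Hoxc10, and for Slc17a6 the embryos overlap.

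Genes of other hypothalamic territories, low in these cells in control, were less low in Eed-cKO. Of 26 tested, 6 rose and 0 fell, where 2.38% of all genes tested were called higher and 1.2% lower. Their median log2 fold change was 0.99 against -0.01 over all genes, and their summed level went from 633 to 926 CPM to 1003 to 1501 CPM. Dlx2, a regulator of GABAergic neurons, stood at 2.72 to 22.8 CPM in control and 0 to 43.5 CPM in Eed-cKO (1.56 ± 0.35, adjusted p = 0.00242), and Six6 at 5.44 to 41.9 CPM and 29.7 to 103 CPM (1.22 ± 0.27, adjusted p = 0.00272). Hmx2 (2.86 ± 0.86), Lhx8 (2.81 ± 0.84) and Onecut2 (1.52 ± 0.37) were called with adjusted p of 0.0421, 0.0420 and 0.0372, and lost the call when any of 9, 9 and 10 of the 15 embryos was left out. Relative to other neurons, Dlx2 rose by 1.67 ± 0.31 (adjusted p = 0.000197). The relative rise of Hmx2 (3.37 ± 0.88) was lost when any of 9 embryos was left out (0.0579 to 0.112), and that of Lhx6 (2.31 ± 0.56) without Eed-cKO embryo 5 or control embryo 6 (0.0839 and 0.0856). In Nr5a1-positive cells alone, Dlx2 had the opposite sign and was not called (-0.48, adjusted p = 0.978).

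Neuropeptide genes moved in both directions, 2 up and 4 down of 24 tested, where 2.38% of all genes tested were called higher and 1.2% lower. Over all neurons, 3 of 26 rose and 6 fell, where 7.7% and 7.08% of genes were called. Pnoc, the nociceptin precursor, stood at 14.1 to 53.7 CPM in control and 68.6 to 162 CPM in Eed-cKO, with no overlap (1.63 ± 0.23, adjusted p = 3.4e-06), and Cartpt, an anorexigenic peptide gene, at 1.36 to 22.6 CPM and 0 to 128 CPM (3.0008 ± 0.59, adjusted p = 0.0105). Pdyn went from 83.7 to 164 CPM to 0 to 94.3 CPM (-1.06 ± 0.19, adjusted p = 0.000261). Cbln1 went from 411 to 652.5 CPM to 238 to 468 CPM (-0.65 ± 0.13, adjusted p = 0.000455), and Scg2, a granin of secretory vesicles, fell by 0.48 ± 0.12. In Nr5a1-positive cells alone Pdyn was not called (0.0031, adjusted p = 0.998), nor were Cbln1 (-0.33, 0.756) and Pnoc (1.56, 0.238). Sst, at 14.1 to 316 CPM in control and 34.2 to 1472 CPM in Eed-cKO, was not called (2.31 ± 0.70, adjusted p = 0.103), nor was Trh (1.77 ± 0.48, adjusted p = 0.064).

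**Figure D5:**
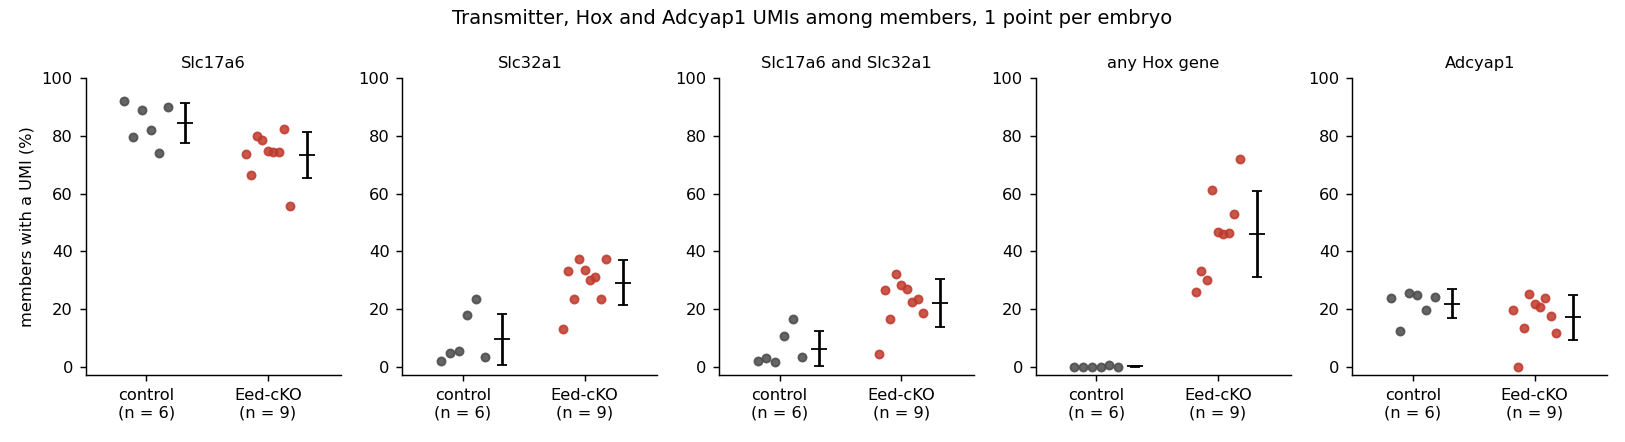
Percentage of Nr5a1/Fezf1 neurons with a UMI of Slc17a6, of Slc32a1, of both, of any Hox gene and of Adcyap1 (vertical axes, percent of the chosen cells), 1 point per embryo, with the mean and SD beside the points for control (n = 6) and Eed-cKO (n = 9). The means go from 84.5% to 73.5% for Slc17a6, from 9.46% to 29.2% for Slc32a1 and from 0.126% to 46.1% for any Hox gene, and Adcyap1 stands at 21.8% and 17.1%.

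Immediate early genes rose in the Nr5a1/Fezf1 neurons, 9 of 12 tested, with a median log2 fold change of 1.51, where 2.38% of all genes tested were called higher. They rose over all neurons too, 10 of 12 with a median of 0.90, where 7.7% of genes were called higher. Of the 12, 2 (Jun and Arc) rose more than in other neurons, where 0.277% of 15541 genes were called relatively higher. Their summed level ranged from 339 to 660 CPM in control and from 327 to 1821 CPM in Eed-cKO, and it was 544 to 921 CPM and 927 to 1704 CPM in other neurons. Jun stood at 65.0 to 95.4 CPM and 81.7 to 352 CPM (1.44 ± 0.21, adjusted p = 0.000108), and its rise exceeded that of other neurons (0.66 ± 0.13, adjusted p = 0.000438). Fos (1.73 ± 0.32), Btg2 (1.66 ± 0.23), Dusp1 (1.04 ± 0.22) and Arc (2.88 ± 0.54) rose too. Ier2 (1.94 ± 0.44) was not called without control embryo 3 (adjusted p = 0.0564), and Fosb, Egr1 and Nr4a1 lost the call when any of 8, 10 and 11 of the 15 embryos was left out. These genes respond to tissue dissociation as well as to activity, and the part of handling was not tested.

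Among 41 axon guidance and adhesion genes tested, 1 rose and 3 fell, where 2.38% of all genes tested were called higher and 1.2% lower. Over all neurons, 1 of 42 rose and 18 fell, where 7.7% and 7.08% of genes were called. Ntn1, the diffusible guidance cue netrin, stood at 2.73 to 10.9 CPM in control and 26.6 to 67.3 CPM in Eed-cKO, with no overlap (2.81 ± 0.35, adjusted p = 5.56e-09). It was lower than in other neurons in control (-2.46 ± 0.30) but not in Eed-cKO (0.13 ± 0.17), and that difference passed (2.60 ± 0.36, adjusted p = 8.61e-09). The guidance receptor Robo2 fell (-0.70 ± 0.17, adjusted p = 0.00495, and 0.0632 without control embryo 3), as did Pcdh10 (-0.53 ± 0.14, adjusted p = 0.0105, and 0.0753 without control embryo 1). Cdh4 (-0.51 ± 0.14, adjusted p = 0.0260) lost its call when any of 8 of the 15 embryos was left out (0.0501 to 0.128).

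The remaining lists held few calls between genotypes, where 2.38% of all genes tested were called higher and 1.2% lower. Of 9 genes of young neurons, Igfbpl1 rose from 22.6 to 62.8 CPM to 89.2 to 180 CPM with no overlap (1.59 ± 0.17, adjusted p = 1.81e-11), and Dlx6os1, a noncoding RNA of the Dlx locus, rose by 2.97 ± 0.53. Of 14 genes of maturing neurons, Syt4 alone was called (-0.45 ± 0.11, adjusted p = 0.00663), and not without control embryo 1 or 3 (0.0826 and 0.0542). Of 7 cell cycle inhibitors tested, Cdkn2a, Cdkn2b and Cdkn2c were called higher, but all 3 were at 0 in control and passed the filter through the Eed-cKO embryos alone, so this count too supports nothing. Cdkn2b stood at 4.84 to 29.7 CPM in Eed-cKO, at least 15.5-fold higher. Of 9 PRC2 subunit genes 0 were called, and of 16 hormone and transmitter receptor genes Cnr1 alone.

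Markers of other cell types moved with genotype in the chosen cells. The leptomeningeal genes Col1a1, Col1a2 and Lum were called higher of 5, and the summed level of the 5 ranged from 0 to 2.82 CPM in control, with Col1a1 and Lum at 0, and from 0 to 325 CPM in Eed-cKO (median 23.5). The 7 astrocyte genes together stood at 160 to 426 CPM and 95.4 to 1252 CPM, with Aqp4 and Aldoc called of 6 tested, and the 5 tanycyte genes at 72.0 to 135 CPM and 50.8 to 574 CPM, with Rax, at 0 in control, called of 4. Pdgfra of 3 oligodendrocyte precursor genes, Dynlrb2 of 2 ependymal genes and Mki67 of 5 cycling genes were called higher. Of 2 endothelial, 1 pericyte and 3 microglial genes, 0 were called. Over all genes tested, 2.38% were called higher and 1.2% lower. Col1a1, Lum, Rax, Pdgfra and Mki67 were at 0 in control and passed the filter through the Eed-cKO embryos alone. Their calls therefore describe them and support nothing. The pituitary list was at 0 to 1.36 CPM in control and 0 to 14.9 CPM in Eed-cKO. Cells with 2 or more endothelial, pericyte, leptomeningeal or microglial genes numbered 6 in control and 37 in Eed-cKO. Without them, in a step added after the data were seen, 227 genes were higher and 146 lower, 334 of the 442 calls were shared, and Sox14, Gda, Ldb2, Slc17a6, Gad1, Gad2, Tal1 and Twist1 were called in the same direction.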

How the data were processed

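The authors deposited 1 table of raw UMI counts per gene and cell, from ddSEQ libraries. Per the labels and methods, the SureCell application was used, with STAR 2.5.2b as aligner, SAMtools 1.3 and the mm10 genome. Cells with fewer than 600 UMIs, with fewer than 300 genes or with a ratio of UMIs to genes below 1.2 had been left out. The annotation and strand of counting are not given in the sources used here. The cells and gene lists described here were chosen with earlier results of these data known.

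Counts of the chosen cells, and of the other neurons, were summed per embryo. Genes with at least 15 UMIs in total and 2 in 1 sum were tested with edgeR 4.0.16 in R 4.3.3 (TMM, quasi-likelihood, Benjamini-Hochberg at 0.05 over all genes tested), without the genes of the rule. Embryos needed 10 chosen cells, which all 15 had, or 5 of each class. Comparisons within an embryo had the embryo as a block. SEs of log2 fold changes are the fold change divided by the root of the F statistic. CPM values were scaled by TMM within each fit, so that the same cells differ slightly between fits. Shares were compared by exact two-sided permutation of embryos (5005 splits, smallest p 0.0003996). P-values measure the spread between these embryos. The 6% of cells with the highest Scrublet score per library (105 of the chosen cells) were left out only as an alternative.

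Named genes were all ventromedial genes, the called genes of each list (the 4 largest where over 12 were called), the 8 largest rises and falls with at least 30 UMIs and no overlap, and the 10 most raised and 5 most lowered genes against other neurons in control, again with at least 30 UMIs in the chosen cells. Eed, Sox1, Pdyn, Prdm12, Trh, Sst and the other genes outside this rule were chosen after their values were seen. Some genes that met the rule are not reported here. Coordinates are from GENCODE vM21. The test was also run on simulated counts with known fold changes and a spread set in advance, unlike the measured one. Its outcome is not used here. Alternatives were other size factors, filters, tools (DESeq2 1.42.0, limma 3.58.1 with TREAT at 0.18), replicates, sex, cell choices, thinning (1000 or 2000 UMIs per cell) and leaving out each embryo. Python 3.11.15, numpy 2.4.6, scipy 1.17.1, pandas 2.3.3 and scanpy 1.11.5 were used.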

Additional observations from a re-analysis of the deposited data

Results flagged for a closer look

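In 10 of 84 groups of embryos tested, 1 embryo stood apart from the rest by Dixon's criterion. How often sparse counts give such a flag by chance is not known, so the number of flags supports nothing. A group with 1 embryo above 0 and the rest at 0 is always flagged, as for the Hox share and Lepr in control. In control Nr5a1/Fezf1 neurons these were the highest embryos for the share with any Hox gene (0.758%, the others at 0), Bdnf (118.64 CPM), Lepr (2.4622 CPM), Pgr (41.99 CPM) and Rbfox1 (547.99 CPM). In Eed-cKO they were the highest embryos for Hoxc10 (154.11 CPM), Nkx2-5 (85.617 CPM), Pgr (34.247 CPM), Tac1 (356.72 CPM) and Vgll2 (168.29 CPM).

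For 25 named genes, the difference between Nr5a1/Fezf1 neurons and other neurons of the same embryos differed between genotypes in the edgeR test of that difference (log2, Eed-cKO minus control). It was positive for Arc (2.27), Dlx2 (1.67), Dlx6os1 (3.09), En1 (7.05), Gad1 (2.01), Gad2 (1.86), Hmx2 (3.37), Igfbpl1 (0.65), Jun (0.66), Lhx6 (2.31), Ntn1 (2.60), Pnoc (0.87) and Syn2 (0.44). It was negative for Cbln1 (-0.49), Dpp10 (-0.61), Gm2694 (-0.87), Ldb2 (-0.97), Lyve1 (-5.74), Nkx2-1 (-0.83), Pdyn (-0.96), Pomc (-4.45), Robo2 (-0.58), Slc17a6 (-0.66), Sox1 (-1.17) and Sox14 (-1.29). The calls of Arc, Dlx6os1, Dpp10, Gad1, Gad2, Hmx2, Igfbpl1, Lhx6, Lyve1, Pomc, Robo2, Sox14 and Syn2 were lost when at least 1 embryo was left out, Gad2 with any of 14 embryos, Pomc with any of 13 and Arc with any of 12. The value for Lyve1 rests on control embryo 4, without which it was 0.46 with an adjusted p of 0.981. The difference between Fezf1-only and Nr5a1-positive cells in the share with both Slc17a6 and Slc32a1 also differed between genotypes, by 10.46 percentage points (exact permutation, adjusted p = 0.00699).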

How the results depend on the processing

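Calls between genotypes in Nr5a1/Fezf1 neurons numbered 442, and 59 in Nr5a1-positive cells alone, 175 with at least 2 UMIs of Nr5a1 and Fezf1, 186 in cells thinned to 2000 UMIs, 219 under filterByExpr, 263 with limma-voom and TREAT, 865 with libraries as samples and 300 to 489 with 1 embryo left out. With sex as a covariate, 402 genes were called, 345 of the 442 among them, and 7 named genes lost their call. Each count takes in all genes called in its setting, and not only those called in the main fit. Of the 442, 262 were tested in Nr5a1-positive cells, where 40 were called and 12 had the opposite sign. Against other neurons in control, calls numbered 547, and 192 when thinned, 221 with limma-voom and TREAT, 221 with no replicate block and 432 to 504 with 1 embryo left out. In Eed-cKO they numbered 272, and 106 when thinned, 87 with no replicate block, 407 with limma-voom and TREAT and 196 to 341 with 1 embryo left out. Of the 272, 82 were among the 407. Genes for which that difference differed between genotypes numbered 65, and 23 in Nr5a1-positive cells, 25 when thinned, 41 under filterByExpr, 11 with no replicate block and 45 to 80 with 1 embryo left out. Of the 65, 4 were called in Nr5a1-positive cells, where 7 of 64 tested had the opposite sign, and 14 were called when thinned. Calls between the classes numbered 406, and 128 when thinned, 235 under filterByExpr and 218 with no replicate block. The block is the embryo that gave both sums. Between genotypes, no paired analysis was possible because the numbers name separate embryos.

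Differences in the shares (percentage points, Eed-cKO minus control) that no longer passed were, in Nr5a1-positive cells, -8.18 for Slc17a6, 2.64 for Slc32a1, 4.18 for both and 7.47 for Tfap2b. With at least 2 UMIs of Nr5a1 and Fezf1, a setting added after the data were seen, they were -12.1 for Slc17a6, 9.29 for both and 4.498 for Tfap2b, and with 2 UMIs of Tfap2b it was 3.48. With 1 embryo left out the differences ranged from -13.1 to -8.81 for Slc17a6, 18.2 to 22.5 for Slc32a1, 14.7 to 18.1 for both, 42.7 to 48.5 for Hox, 5.99 to 7.83 for Tfap2b and -6.57 to -2.58 for Adcyap1, which passed only without control embryo 2. The shares of neurons differed by 0.852 to 1.95, -0.559 to -0.239 for Nr5a1, 1.02 to 2.18 for Fezf1 and -0.391 to -0.0259 for both.

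Signs turned in Nr5a1-positive cells between genotypes for Dlx2 (-0.48), Pdyn (0.0031), Six6 (-0.18) and Syt4 (0.12), against other neurons in control for Gsc (-6.31), Nos1 (-0.84), Sim1 (-2.04) and Six6 (0.43), in Eed-cKO for Gsc (-5.41), Isl1 (0.24), Sox11 (0.26), Syn2 (-0.12) and Unc5d (0.096), and in the difference between genotypes for Dlx2 (-0.66), Lyve1 (4.19) and Pdyn (0.098). Lyve1 also turned without cells holding non-neural genes (2.05) and without control embryo 4 (0.46; -8.66 without Eed-cKO embryo 4), and Isl1 turned between the classes when thinned (-0.071). The cause was not tested. Cells with 1 UMI of either gene, 15 to 46 cells in 5 Eed-cKO embryos and an unknown strand of counting limit the values.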
